A study of Mus musculus with 18 samples.

Results

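The 10 genes described here encode chaperones of the endoplasmic reticulum (ER) and transcription factors of its stress response, measured in mouse hippocampus with microRNA loss or gain. They were picked by gene symbol out of 11738 symbols in the count files of 3 comparisons. They comprise the lumenal chaperones Hspa5 and Hsp90b1, the lectin chaperones Calr and Canx, the disulfide isomerases Pdia3, Pdia4 and Pdia6, and the regulators Xbp1, Atf4 and Atf6. An earlier look at these data had found Hspa5 lower after loss of miR-132 and miR-212, so the values of that comparison chose the set and are given as a description. All 10 genes are among the 10541 genes of the deletion table and the 10799 of the tTA::miR132 table, and 9 are among the 4618 of the tTA::miR212 table, in which Pdia4 is not listed. Every listed member passed the filter on low counts.

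The ER folds secreted and membrane proteins, which in neurons include receptors, channels and adhesion proteins. Hspa5, also called BiP, binds unfolded chains and holds the stress sensors inactive, Hsp90b1 matures selected client proteins, calreticulin (Calr) and calnexin (Canx) hold glycoproteins, and the isomerases form disulfide bonds. When unfolded protein accumulates, the cleaved form of Atf6 and the spliced form of Xbp1 switch on chaperone genes, while Atf4, whose translation rises when general translation is slowed, acts on amino acid metabolism genes.

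Polyadenylated RNA came from whole hippocampus of C57BL/6 mice, with no age or sex stated in the sources used here. In the deletion group (CaMKII-Cre::miR-132/212f/f), a Cre recombinase under the CaMKII promoter, active in excitatory forebrain neurons, removes both microRNA genes. In tTA::miR132 and tTA::miR212 animals a tetracycline transactivator, whose promoter the labels do not name, drives a transgene for one microRNA. Each has its own nontransgenic controls, which lack Cre or tTA as well, so the driver and the microRNA cannot be told apart. The deletion and tTA::miR132 tables hold 2 libraries a group and that of tTA::miR212 holds 3, or 14 libraries of the 18 samples labelled, and the third library of the other groups was not analysed here. Replicates are described as pools of cDNA from 6 animals made into 3 replicates. A column names a group and a library number but not a single sample. Neurons and other cells are mixed in these libraries, so a lower count cannot distinguish fewer cells of a type from less RNA per cell.

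Libraries of the deletion and tTA::miR132 tables held 8190899 to 14772907 counts, and those of tTA::miR212 held 1299369 to 1544923 counts over the transcripts used. The biological coefficient of variation fitted by edgeR was 74.2% for the deletion, 60.7% for tTA::miR132 and 8.58% for tTA::miR212. Deletion library 1 stood apart, with 1047 of its genes at 0 (9.93%) against 73 to 120 in the other libraries of its table. Its log2 CPM (a gene's count scaled to a library total of 1000000) correlated with those at r = 0.65 to 0.67, where the others correlated among themselves at 0.90 to 0.92. Control library 2 of the tTA::miR132 table also stood apart, to a lesser degree, with 485 genes at 0 (4.49%) against 92 to 262, and r of 0.72 to 0.78 with the others, which correlated at 0.84 to 0.91 among themselves. Fold changes of the members and of the named genes of both tables are therefore also given without these libraries.

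Both mature microRNAs are printed first because most direct targets of a microRNA carry a match to its seed. They are RefSeq sequences of GRCm38.p6, both on the plus strand of chromosome 11, at chr11:75173723-75173744 and chr11:75173443-75173464, with the seed (bases 2 to 8) in capitals:
mmu-miR-132-3p: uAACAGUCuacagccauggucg
mmu-miR-212-3p: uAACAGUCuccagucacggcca
The seeds are identical, so both seek the same 7 letters GACUGUU in a message. None of the 10 members held these letters in the longest 3′ UTR among its coding transcripts, 80 to 5422 bases long. By the same rule 1994 of 19915 mouse genes did (10.01%), and the median 3′ UTR of these 19915 was 893 bases. The absence in members says only that the 7 letters are not in these annotated windows.

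The promoters are shown because members of this set share a regulatory motif. The ER stress response element, CCAAT and CCACG separated by 9 bases, is the known site of Atf6 with the factor NF-Y. Searched on both strands from 250 bases before to 50 after the annotated start, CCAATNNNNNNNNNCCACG was found in 5 of 9 members with a RefSeq promoter (Hspa5, Hsp90b1, Calr, Canx and Pdia6), against 39 of 32851 promoters in all (0.119%). Several members are textbook targets of this element, so the share is a description. Hspa5 (chr2:34771840-34772139, plus strand) and Hsp90b1 (chr10:86705395-86705694, minus strand) are printed in full, 5′ to 3′ along the gene with the element in capitals, because these 2 genes varied together in the tTA::miR212 libraries and apart elsewhere:
Hspa5: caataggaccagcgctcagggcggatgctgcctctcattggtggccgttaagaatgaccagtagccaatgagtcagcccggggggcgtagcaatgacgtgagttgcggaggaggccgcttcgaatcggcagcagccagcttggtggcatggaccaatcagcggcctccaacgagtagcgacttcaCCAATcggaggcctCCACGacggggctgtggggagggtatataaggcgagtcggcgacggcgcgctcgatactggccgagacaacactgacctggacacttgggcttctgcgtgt
Hsp90b1: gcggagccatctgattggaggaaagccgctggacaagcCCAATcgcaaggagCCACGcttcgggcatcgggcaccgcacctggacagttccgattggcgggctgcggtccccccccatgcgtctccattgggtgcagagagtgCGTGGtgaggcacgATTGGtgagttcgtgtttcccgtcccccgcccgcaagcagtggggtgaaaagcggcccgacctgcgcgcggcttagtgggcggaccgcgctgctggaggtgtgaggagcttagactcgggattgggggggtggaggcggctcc
Hspa5 carries 1 match, which begins 65 bases before the start, and Hsp90b1 carries 2, at 212 and 107 bases, the nearer one reading against the gene. The matches of the other 3 genes, in the same capitals, lie at chr11:50325800-50325818 (Canx, minus-strand gene), chr12:17266491-17266509 (Pdia6, plus) and chr8:84847075-84847093 (Calr, minus):
Canx: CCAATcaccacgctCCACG
Pdia6: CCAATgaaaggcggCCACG
Calr: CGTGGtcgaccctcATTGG
The Calr match reads against the gene. Neither the ER stress response element II (ATTGG and CCACG with 1 base between them, in 0.037% of promoters), TGACGTGG (unfolded protein response element, 0.676%), nor TGATGNAA (amino acid response element, 3.969%) was found in any of the 9 windows. TGACGTGG ends in the reverse complement of CCACG and can share letters with the other elements.

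In control libraries the lumenal and lectin chaperones were the most abundant members per length of message. On the scale of CPM per kilobase of the longest coding transcript, Hspa5 stood at 172 ± 14.8 and Hsp90b1 at 172 ± 53.0 (SD, n = 2) in the deletion controls, ahead of Canx (145 ± 16.3), Calr (133 ± 1.92) and Atf4 (121 ± 7.95). Hsp90b1 spanned 134 to 209 and so overlapped Hspa5, Canx and Calr, and Canx overlapped Calr. Pdia6 (87.2 ± 14.5) and Xbp1 (61.7 ± 6.06) came next, and Pdia3 (16.8 ± 3.92), Pdia4 (14.6 ± 1.23) and Atf6 (11.4 ± 0.18) were lowest. Atf4, Pdia6 and Xbp1 overlapped no neighbour, Pdia3 and Pdia4 overlapped, and Atf6 lay below both.

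The order was similar in the tTA::miR132 controls (n = 2), led by Hsp90b1 at 224 ± 46.2 and Hspa5 at 181 ± 9.38 CPM per kilobase, with Atf6 at 14.8 ± 3.10 and Pdia3 at 8.99 ± 9.51 last. Among tTA::miR212 controls (n = 3), Calr led at 209 ± 20.9, above Hsp90b1 (115 ± 14.7), Hspa5 (115 ± 11.2) and Canx (107 ± 5.62), which overlapped, and Atf6 was last at 15.3 ± 1.19. Pdia3 stood at 53.6 ± 2.74 there. The tables were counted over unlike annotations, RefSeq genes against Ensembl transcripts, so levels are not compared between them.

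**Figure D1:**
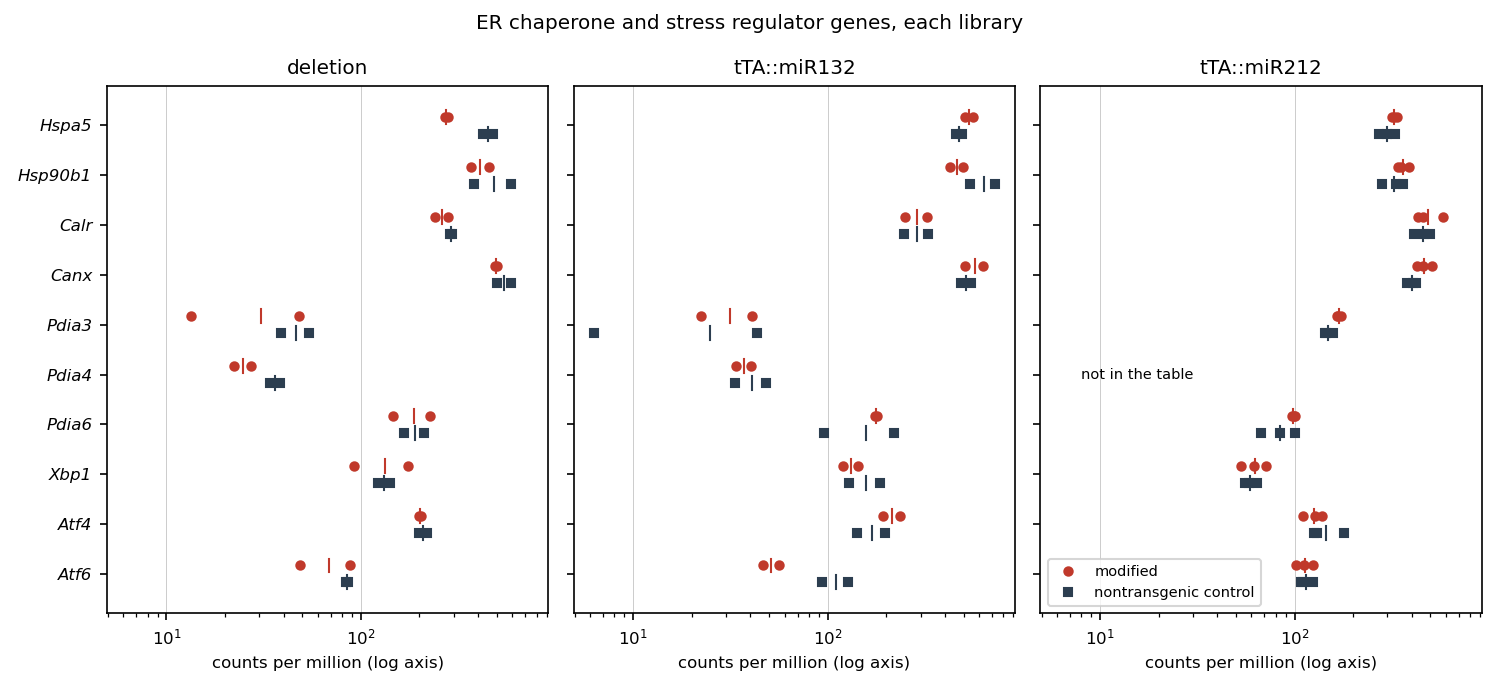
CPM of each of the 10 genes in every library (points, log axis), with the group mean as a short bar, in the 3 comparisons. For Hspa5 the deletion libraries sit at 270.0 and 279.7, below both controls, while Pdia3 in the RefSeq tables spans 6.26 to 54.1.

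Loss of miR-132 and miR-212 asks whether ER genes respond when neurons lack both. Hspa5 (NM_022310, chr2:34627490-34632051 in mm9) was the member that set the libraries apart most clearly: it stood at 270.0 and 279.7 CPM in the deletion libraries and at 423 and 478 in the controls. Both deletion libraries were below both controls, by more than the spread within either group. The means were 275 ± 6.88 and 451 ± 38.6 (SD, n = 2), a ratio of 0.61, and the log2 fold change was −0.69 (SE 0.21). It was −0.70 without deletion library 1, and the difference was thus as large without that library.

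Its partner Hsp90b1 (chr10:86152954-86168254) did not separate the groups: the deletion libraries held 367 and 455 CPM and the controls 591 and 379.6. Deletion library 2 lay between the controls, and the log2 fold change of −0.22 (SE 0.27) turned to 0.13 without control library 1 and was −0.11 without deletion library 1. Hspa5 amounted to 0.74 and 0.61 times the Hsp90b1 count in the deletion libraries and 0.72 and 1.26 times in the controls. Control library 2 alone had more Hspa5 than Hsp90b1 counts in this table.

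The lectin chaperones were close to their controls. Calr (chr8:87365749-87370833) stood at 282 and 241 CPM against 294 and 288, and Canx (chr11:50107969-50139175) at 499 and 487 against 504 and 591. Both deletion libraries were the lower for each gene, but the nearest deletion and control values were a few CPM apart for Canx, and the log2 fold changes were −0.13 (SE 0.23) and −0.12 (SE 0.20). Without deletion library 1, Calr came to −0.29 and Canx to −0.18, and without deletion library 2 Calr came to 0.02.

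Of the isomerases, Pdia4 (chr6:47746141-47763511) stood at 22.3 and 27.2 CPM in the deletion libraries against 38.3 and 33.9 in controls, with no overlap and a log2 fold change of −0.52 (SE 0.62). It was −0.42 when deletion library 1 was left out. Pdia3 (chr2:121239511-121264423), the isomerase that works on glycoproteins with calnexin and calreticulin, stood at 13.4 and 47.8 against 54.1 and 38.7. Its log2 fold change of −0.60 (SE 0.74) rested on deletion library 1 and was 0.03 without it. Pdia6 (chr12:17273351-17291576) stood at 227 and 146 against 167 and 212, and at 0.01 on the log2 scale (SE 0.33) it turned to −0.39 without that library. The 2 deletion libraries thus lie on either side of the Pdia6 controls.

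The regulators overlapped between groups. Xbp1 (chr11:5420662-5425896) stood at 174 and 91.8 CPM against 140.5 and 122, a pattern like that of Pdia6 in which deletion library 1 was highest and library 2 lowest. Its log2 fold change of 0.05 (SE 0.40) was −0.53 without library 1. Atf4 (chr15:80085614-80087970) differed little between libraries, at 199.5 and 205 against 218 and 198 CPM (−0.02, SE 0.24, and −0.03 without library 1). Atf6 (chr1:172634588-172797902) stood at 48.6 and 88.3 against 84.0 and 85.8, and its −0.30 (SE 0.42) became 0.05 without library 1. Counts per gene do not separate spliced from unspliced Xbp1 and do not report cleavage of the Atf6 protein.

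In all, 8 of 10 members lay below 0 on the log2 scale after deletion, and Hspa5, Calr, Canx and Pdia4 had both deletion libraries under both controls. No member was higher without overlap. Across the 10487 genes tested, 18.0% were lower and 14.3% higher without overlap, and the members' median of −0.17 stood beside −0.03 for all genes. Because this comparison chose the set, nothing is read from those counts. The share of genes called by edgeR's quasi-likelihood test at an adjusted p under 0.05 was 0.0%, so no member was called. At an unadjusted p under 0.05, 88 genes and 1 member, Hspa5, were found, while DESeq2 called 12 genes and limma-voom 1.

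Marker sums of some cell types also did not overlap between the deletion and control libraries. The groups did not overlap in 32.3% of all genes tested, counting both directions. The 14 choroid plexus markers listed, of 15, summed to 995 and 2624 CPM in deletion libraries and to 5661 and 6665 in controls. Deletion library 1 had 8 of them at 0 (Otx2, Clic6, Folr1, Kcne2, Slc4a5, Aqp1, Prlr and F5) and library 2 had Otx2 at 0. The 10 markers of pyramidal and granule neurons summed to 6043 and 4378 against 3797 and 4193, with Prox1, the granule cell factor, at 0 in library 1, and the 10 endothelial and meningeal markers to 348 and 319.8 against 285 and 305, with Cldn5 and Col1a1 at 0 in library 1. Marker sums for interneurons, astrocytes, oligodendrocytes and microglia overlapped. Choroid plexus is a secretory epithelium, and its part in the lower Hspa5 counts was not tested.

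Gain of miR-132 asks the opposite question with separate controls. Atf6, which encodes the membrane-held sensor and activator of chaperone genes, stood at 46.4 and 56.1 CPM in tTA::miR132 libraries against 93.8 and 127 in controls. Both transgenic libraries were below both controls: the means were 51.2 ± 6.87 and 110.2 ± 23.2 (SD, n = 2), a ratio of 0.46, and the log2 fold change was −1.15 (SE 0.39). The adjusted p was 0.997 by edgeR's quasi-likelihood test, so the difference did not pass over the 10734 genes tested. DESeq2 gave −1.16 with an adjusted p of 0.0499, and adjusted p over all alternatives ran from 0.0499 to 1.00. The values without 1 library each ran from −1.37 to −0.89, the latter without control library 2, which held the highest Atf6 count.

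Hsp90b1 was the other member below its controls, at 423 and 496 CPM against 541 and 725. Its log2 fold change was −0.51 (SE 0.20, adjusted p = 0.997 by edgeR). It ran from −0.73 without control library 1 to −0.25 without control library 2, the library with the highest CPM. Hspa5 lay on the other side, at 510 and 555 against 491 and 457 CPM, with both transgenic libraries just above both controls (0.13, SE 0.17, adjusted p = 0.997 by edgeR, and 0.11 without control library 2). Hspa5 therefore exceeded Hsp90b1 in both transgenic libraries, by ratios of 1.20 and 1.12, and was below it in both controls, at 0.91 and 0.63. In the plot of both genes by library the groups lie on opposite sides of the line of equal counts.

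**Figure D2:**
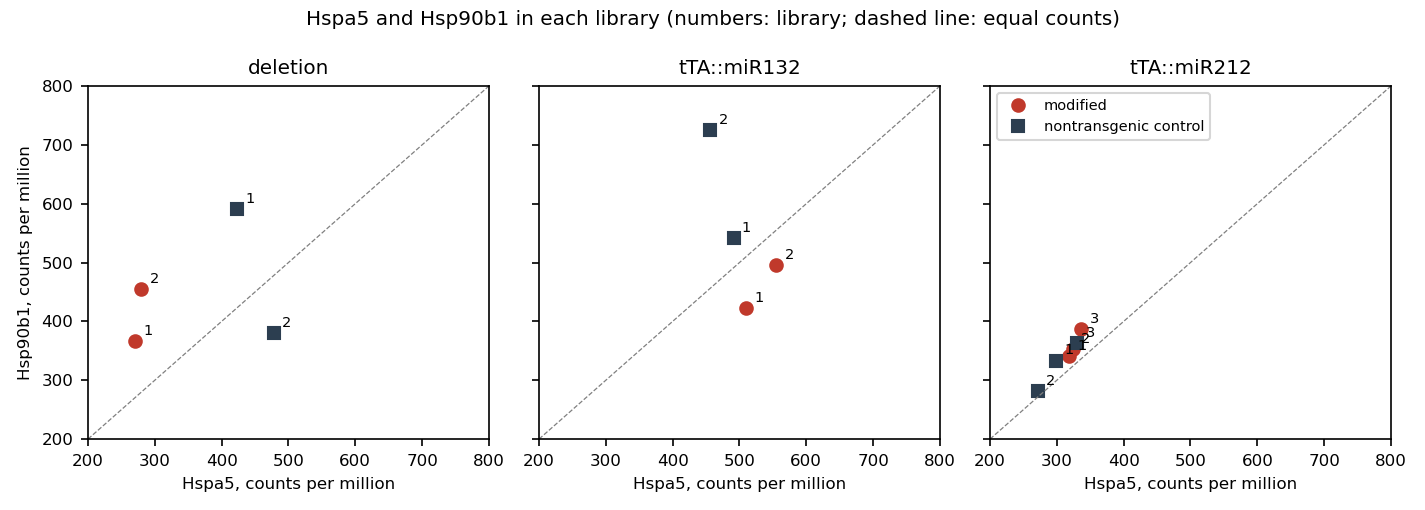
Hspa5 (horizontal axis) against Hsp90b1 (vertical axis), both in CPM, in each library, with modified animals as circles and controls as squares. The tTA::miR212 libraries form a line near equal counts, at Hspa5 to Hsp90b1 ratios of 0.87 to 0.97, while ratios in the other tables run from 0.61 to 1.26.

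The other members overlapped between tTA::miR132 and control libraries. Calr stood at 249 and 325 CPM against 327 and 246, and Canx at 507 and 631 against 547 and 487, with log2 fold changes of −0.04 (SE 0.23) and 0.10 (SE 0.18). Both Calr values lay within the range of the controls, and 1 Canx value lay above it. Pdia3 ranged from 6.26 CPM in control library 2 to 43.5 in control library 1, with 22.4 and 40.8 in the transgenic libraries, and its log2 fold change of 0.31 (SE 0.86) was 2.26 without control library 1 and −0.48 without control library 2. Pdia6 was also low in control library 2, at 95.2 CPM against 218 in control library 1 and 176 and 180.2 in the transgenic ones (0.15, SE 0.35), and came to 0.84 and −0.30 without those same libraries.

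Pdia4 (33.6 and 40.5 against 48.2 and 33.2 CPM) and Xbp1 (119.7 and 143 against 129 and 186) had log2 fold changes of −0.18 (SE 0.54) and −0.31 (SE 0.31). Atf4 stood at 234 and 193 against 197 and 142, and its log2 fold change was 0.29 (SE 0.27). Without control library 2, Calr came to −0.20, Canx to 0.04, Pdia4 to −0.39, Xbp1 to 0.01 and Atf4 to 0.10. The 2 control libraries differed from each other by more than the group means did for Hsp90b1, Calr, Canx, Pdia3, Pdia4, Pdia6, Xbp1 and Atf4, which is every member but Hspa5 and Atf6.

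Of the 10 members, 2 were lower and 1 higher without overlap in tTA::miR132, where 14.3% and 18.8% of all genes tested did so. The members' counts are near this background. Their median log2 fold change was 0.03 against −0.0024 for all genes, with 5 members on each side of 0. The share of genes called was 0.0% by edgeR. At an unadjusted p under 0.05 there were 303 genes, of which 2 were members, Atf6 and Hsp90b1, and DESeq2 called 43 genes and limma-voom 3.

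Marker sums of 3 cell types also did not overlap between the tTA::miR132 groups. Nor did 33.1% of all genes tested, counting both directions. The 14 choroid plexus markers summed to 5137 and 3818 CPM against 6656 and 5149 in controls, with Aqp1 at 0 in transgenic library 1. The 10 pyramidal and granule neuron markers summed to 3847 and 4177 against 4302 and 4478, and the 9 oligodendrocyte markers to 4839 and 4709.9 against 3869 and 4043, none of them at 0. The part of these cells in the Atf6 and Hsp90b1 values was not tested.

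Gain of miR-212 was measured with 3 libraries a group and the smallest spread. That spread is between libraries, which may divide the same pool, and need not be a spread between animals. Canx, the membrane-bound lectin chaperone, stood at 427, 459.6 and 507 CPM in tTA::miR212 libraries against 379.6, 421 and 408 in controls. All 3 transgenic libraries were above all 3 controls, at means of 465 ± 40.3 and 403 ± 21.2 (SD, n = 3). The log2 fold change was 0.20 (SE 0.08) with an adjusted p of 0.845 by edgeR, so it did not pass over the 4618 genes tested. It ran from 0.13 to 0.25 over the alternatives, at adjusted p of 0.292 to 1.00.

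Pdia3, its partner on glycoproteins, stood at 166, 166 and 173 CPM against 143, 157 and 145. The groups did not overlap here either, and the log2 fold change was 0.17 (SE 0.10, adjusted p = 0.907 by edgeR). Over the 6 libraries, Canx and Pdia3 correlated at r = 0.90 on the log2 scale, a description of points that share group and depth. Calr and Pdia3 correlated at 0.46. Pdia6 stood at 98.9, 100.3 and 97.0 against 83.9, 100.8 and 67.4, so that its transgenic libraries were alike and its controls spread around them (0.22, SE 0.14, adjusted p = 0.913 by edgeR).

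Hspa5 stood at 318, 324 and 336 CPM against 299, 272 and 330.3, and Hsp90b1 at 340.3, 353 and 387 against 333, 281 and 363. In both genes control library 3 reached into the transgenic range and control library 2 was lowest. The log2 fold changes were 0.11 (SE 0.08) for Hspa5 and 0.14 (SE 0.09) for Hsp90b1, at adjusted p of 0.931 and 0.913 by edgeR. Across the 6 libraries the pair correlated at r = 0.97, and Hsp90b1 ranked 3 among 4103 genes for likeness to Hspa5. Pdia6, whose promoter also holds the element, correlated with Hspa5 at −0.28 and with Hsp90b1 at −0.29 in these libraries. Over all 14 libraries the correlation of Hspa5 with Hsp90b1 was 0.16 and the rank 1834.

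Calr stood at 455, 431 and 577 CPM against 409, 463 and 499.9, and its 0.08 (SE 0.12) turned to −0.06 without transgenic library 3, which held the highest value. Of the regulators, Atf4 stood at 138, 128 and 111 against 179, 131 and 126.5 CPM, at −0.23 (SE 0.13, adjusted p = 0.913 by edgeR), and was −0.05 at its nearest to 0 when a library was left out. Atf6 was level at 125, 102 and 112 against 124, 108 and 111 (−0.03, SE 0.12). Xbp1, at 62.1, 53.1 and 71.6 against 58.1, 63.9 and 55.3 CPM, overlapped as well (0.06, SE 0.18). The correlation of Atf4 with Canx was −0.84 and with Calr −0.81 over the 6 libraries, again as a description. These and the values of 0.97 and 0.90 above were the strongest of either sign among all pairs of members, so they are extremes picked from many.

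Of the 9 members listed, 7 lay above 0 in tTA::miR212, and 2 were higher and 0 lower without overlap. Among all genes tested, 6.47% were higher and 4.96% lower without overlap, and 0.0% were called by edgeR. The members' median was 0.11 against 0.0027 for all genes. At an unadjusted p under 0.05 there were 260 genes and 1 member, Canx, and neither DESeq2 nor limma-voom called any gene. Where a gene had several transcripts, their values stayed on 1 side of 0: Hspa5 ran from 0.11 to 0.22 over 5, Calr from 0.07 to 0.13 over 4, Hsp90b1 from 0.13 to 0.21 over 3, and Canx from 0.03 to 0.20 over 2. These transcripts share reads.

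The marker sums of all 7 cell type lists overlapped between the tTA::miR212 groups, and no listed marker was at 0. Choroid plexus markers, 3 of 15 in this table, summed to 1420, 219 and 1296 CPM in transgenic libraries and to 1412, 1227 and 534 in controls.

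**Figure D3:**
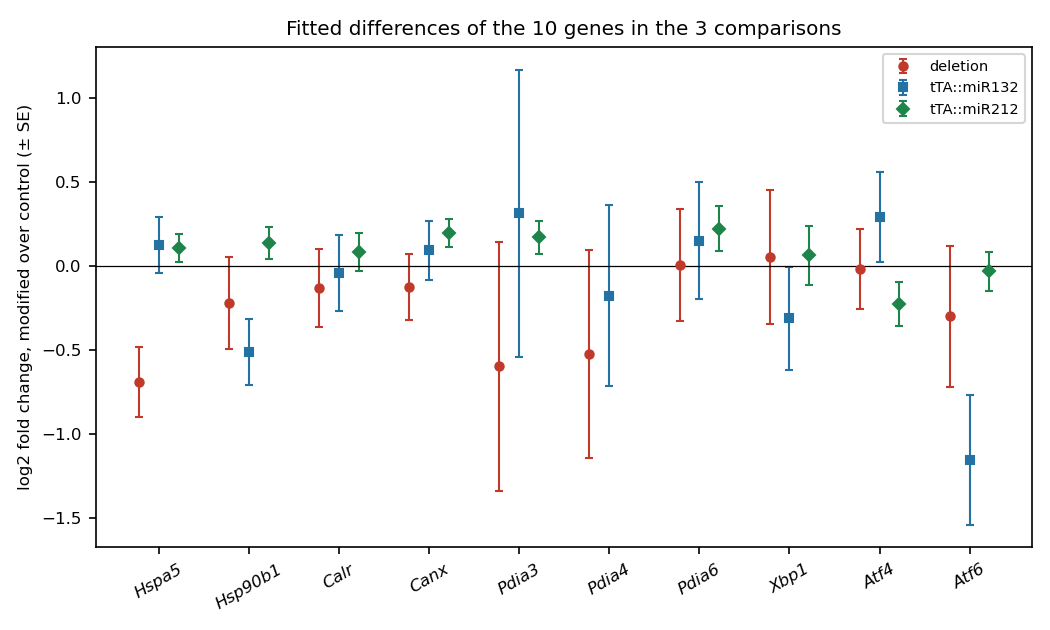
Log2 fold change of each of the 10 genes, modified over control (points), with its standard error (bars), in the 3 comparisons. Hspa5 lies at −0.69 in the deletion and at 0.13 and 0.11 with the transgenes, and Atf6 lies at −1.15 with tTA::miR132.

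Set side by side, Hspa5 lay at −0.69 in the deletion, 0.13 in tTA::miR132 and 0.11 in tTA::miR212, each against its own controls. Hsp90b1 lay at −0.22, −0.51 and 0.14, and Atf6 at −0.30, −1.15 and −0.03. For Canx the values were −0.12, 0.10 and 0.20. No difference between comparisons was tested, since each was counted and fitted in its own table.

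The 5 genes with the ER stress response element in the promoter lay at 0.08 to 0.22 in tTA::miR212, from −0.69 to 0.01 in the deletion and from −0.51 to 0.15 in tTA::miR132. Members whose promoter window lacked it spanned −0.23 to 0.17 (3 genes), −0.60 to 0.05 (4 genes) and −0.31 to 0.31 (4 genes). The ranges of the groups with and without the element overlapped in every comparison.

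Over all 14 libraries, each taken as its difference from the mean of its table, the genes most like Hspa5 in log2 CPM were Wscd1 (r = 0.88), Atxn2 (0.87), Cggbp1 (0.87), Kdm3b (0.86) and Dap3 (0.85), out of 4103 genes compared. Without deletion library 1 they stood at 0.81 to 0.85. Within the 6 tTA::miR212 libraries they stood lower for Wscd1 (0.34), Atxn2 (0.38), Cggbp1 (0.62) and Kdm3b (0.13), and at 0.87 for Dap3. Among the members listed in every table, which leaves out Pdia4, the one most like Hspa5 was Canx at 0.56. These correlations share the contrast between deletion libraries and controls.

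The wider ER folding machinery was listed to show the setting of these genes, and no gene of any list was called in any comparison. Shares are of the listed genes that a table held. The tTA::miR212 table held 13 of 35 other ER chaperones and folding enzymes, 11 of 25 degradation genes and 7 of 20 sensors and regulators. It held 10 of 25 Atf4 and CHOP targets, 13 of 21 translocon genes and 16 of 27 chaperones outside the ER. The other tables held more of each list. Of 32 other ER chaperones and folding enzymes in the deletion table, 16 lay above and 16 below 0, at a median of 0.02. Erp29, a lumenal folding factor, stood at 123 and 105.5 CPM in the deletion against 184 and 152 in controls (−0.53, SE 0.29). The BiP-related Hspa13 stood at 130.0 and 83.8 against 90.9 and 44.8, with overlap (0.69, SE 0.49), and the testis-enriched Clgn lay at 1.72 (SE 1.31). Without deletion library 1 these 3 lay at −0.68, 0.29 and 1.19. In tTA::miR132 19 of 34 lay below 0 (median −0.06). There the transmembrane thioredoxin Tmx1 stood at 38.5 and 35.2 against 65.9 and 60.8 CPM (−0.82, SE 0.47), and the disulfide reductase Dnajc10 at 91.7 and 84.1 against 92.8 and 160.2 (−0.57, SE 0.36). Sil1, the nucleotide exchange factor of BiP, lay at −1.32 (SE 0.83). Without control library 2 these 3 lay at −0.85, −0.09 and 0.66. In tTA::miR212 7 of 13 lay above 0 (median 0.01), with Txndc5 at 0.20 (SE 0.14), Fkbp9 at 0.23 (SE 0.16) and Ganab at 0.16 (SE 0.12).

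Genes of ER-associated degradation, which returns misfolded protein to the cytosol, were split in the deletion, with 11 of 23 above 0 (median −0.15). Sel1l, a scaffold of the ubiquitin ligase complex, lay at −0.75 (SE 0.53), the mannosidase-like Edem3 at 0.63 (SE 0.41) and the selenoprotein gene Selk at −0.40 (SE 0.29). Without deletion library 1 they lay at −0.17, 0.43 and −0.38. In tTA::miR132 12 of 23 lay above 0 (median 0.04). Edem1, which takes misfolded glycoproteins out of the folding cycle, stood at 17.5 and 30.7 CPM against 55.3 and 68.9, both transgenic libraries below both controls (−1.42, SE 0.54, adjusted p = 0.997 by edgeR). The ubiquitin-conjugating Ube2j1 lay at 0.58 (SE 0.28) there and at 0.20 (SE 0.11) in tTA::miR212, and Derl2 at 1.22 (SE 0.65) in tTA::miR132. Without control library 2, Edem1, Ube2j1 and Derl2 lay at −1.21, 0.52 and 0.87. In tTA::miR212 9 of 11 lay above 0 (median 0.09), and Ube2j1 and Ubxn4 (0.24, SE 0.11) had all transgenic libraries above all controls, while Edem3 overlapped (0.19, SE 0.15). Of all genes tested, 6.47% had all transgenic libraries above all controls.

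Sensors and regulators other than the members lay on both sides of 0. In the deletion 9 of 15 lay below it (median −0.09), and 4 were lower and 2 higher without overlap. Of all genes tested there, 18.0% were lower and 14.3% higher without overlap. Atf6b, the paralogue of Atf6, stood at 99.3 and 55.6 CPM against 39.5 and 48.7 (0.84, SE 0.50). The kinase Eif2ak1 lay at 1.76 (SE 0.73), and the adaptor Traf2, at 0 and 4.64 CPM against 13.6 and 17.2, at −2.74 (SE 2.62). Without deletion library 1 these 3 lay at 0.32, 0.82 and −1.74. In tTA::miR132 9 of 15 lay above 0 (median 0.07). Mbtps1, the protease that makes the first cut in Atf6, stood at 143 and 123 CPM against 94.3 and 57.8, both transgenic libraries above both controls (0.77, SE 0.36, adjusted p = 0.997 by edgeR), in the comparison in which Atf6 lay at −1.15. The kinase Eif2ak4 lay at 1.65 (SE 0.86) and Nfe2l1 at 0.42 (SE 0.26), and without control library 2 these 3 lay at 0.48, 1.95 and 0.29. In tTA::miR212 4 of 7 lay below 0 (median −0.03), with Atf6b at −0.14 (SE 0.12), Eif2ak1 at 0.08 (SE 0.11) and Creb3 at −0.15 (SE 0.23).

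Known target genes of Atf4 and of the stress factor CHOP included Psat1, an enzyme of serine synthesis, at 76.5 and 119 CPM in the deletion against 172 and 169 in controls (−0.79, SE 0.32), and the glycyl-tRNA synthetase Gars, at 124 and 97.4 against 169 and 172 (−0.60, SE 0.29). Both genes had deletion libraries below controls. The transcription factor gene Cebpb had both above, at 69.2 and 35.7 against 7.63 and 33.8 CPM (1.37, SE 0.87). Without deletion library 1 these 3 lay at −0.53, −0.82 and 0.77. In that comparison 10 of 19 targets lay below 0 (median −0.12). In tTA::miR132 12 of 18 lay above 0 (median 0.17), with the mTORC1 inhibitor Ddit4 at 1.18 (SE 0.58), the serine enzyme Psph at 0.92 (SE 0.57) and the amino acid transporter subunit Slc3a2 at −0.54 (SE 0.31). Without control library 2 they lay at 1.25, 1.11 and 0.0030. In tTA::miR212 5 of 10 lay above 0 (median 0.01), with the cystine transporter Slc7a11 at 0.12 (SE 0.13), Slc3a2 at −0.09 (SE 0.11) and Aars at 0.05 (SE 0.08).

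Genes of the translocon, signal peptidase and oligosaccharyltransferase, through which proteins enter the ER, had medians of 0.10 in the deletion (11 of 19 above 0), 0.15 in tTA::miR132 (13 of 19) and 0.03 in tTA::miR212 (8 of 13). In the deletion and in tTA::miR132, 15.8% of this list had no overlap in either direction, against 32.3% and 33.1% of all genes tested. In tTA::miR212 4 of 13 had all transgenic libraries above all controls, where 6.47% of all genes did. Among them Sec62, which brings proteins to the translocon after synthesis, stood at 209.3, 209.1 and 209.4 CPM against 176, 175 and 197 (0.19, SE 0.09, adjusted p = 0.892 by edgeR). The oligosaccharyltransferase subunit Ddost lay at 0.19 (SE 0.12) there and at 0.81 (SE 0.39) in the deletion, at 204 and 115 CPM against 102 and 84.5, and Sec63 at 0.14 (SE 0.12) in tTA::miR212. Also in the deletion, Spcs3 of the signal peptidase lay at −0.66 (SE 0.36) and Sec61a2 of the channel at 0.54 (SE 0.40), and without deletion library 1 Ddost, Spcs3 and Sec61a2 lay at 0.30, −0.98 and −0.04. In tTA::miR132 Ssr1 lay at 0.35 (SE 0.25), Ssr3 at 0.25 (SE 0.25) and Dad1 at −0.41 (SE 0.43), or at 0.24, 0.05 and 0.35 without control library 2.

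Chaperones outside the ER had medians of −0.13 in the deletion (15 of 26 below 0), 0.0012 in tTA::miR132 (13 of 26 above 0) and 0.08 in tTA::miR212 (13 of 16 above 0). The constitutive Hspa8 lay at −0.96 (SE 0.42) in the deletion and at −0.22 (SE 0.12) in tTA::miR212, but it has near-identical pseudogene copies and its counts are uncertain. The small heat shock protein gene Cryab stood at 153 and 158 CPM in the deletion against 201 and 223 (−0.43, SE 0.25) and lay at 0.26 (SE 0.14) in tTA::miR212, where the cochaperone gene St13 lay at 0.22 (SE 0.12). The heat shock factor gene Hsf1 lay at −0.97 (SE 0.67) in the deletion, and without deletion library 1 Hspa8, Cryab and Hsf1 lay at −0.63, −0.43 and −0.59. In tTA::miR132 Bag3 lay at −1.66 (SE 1.07), Hspa9 at 0.39 (SE 0.26) and Hspa2 at 0.52 (SE 0.35), or at −1.19, 0.26 and 0.54 without control library 2.

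**Figure D4:**
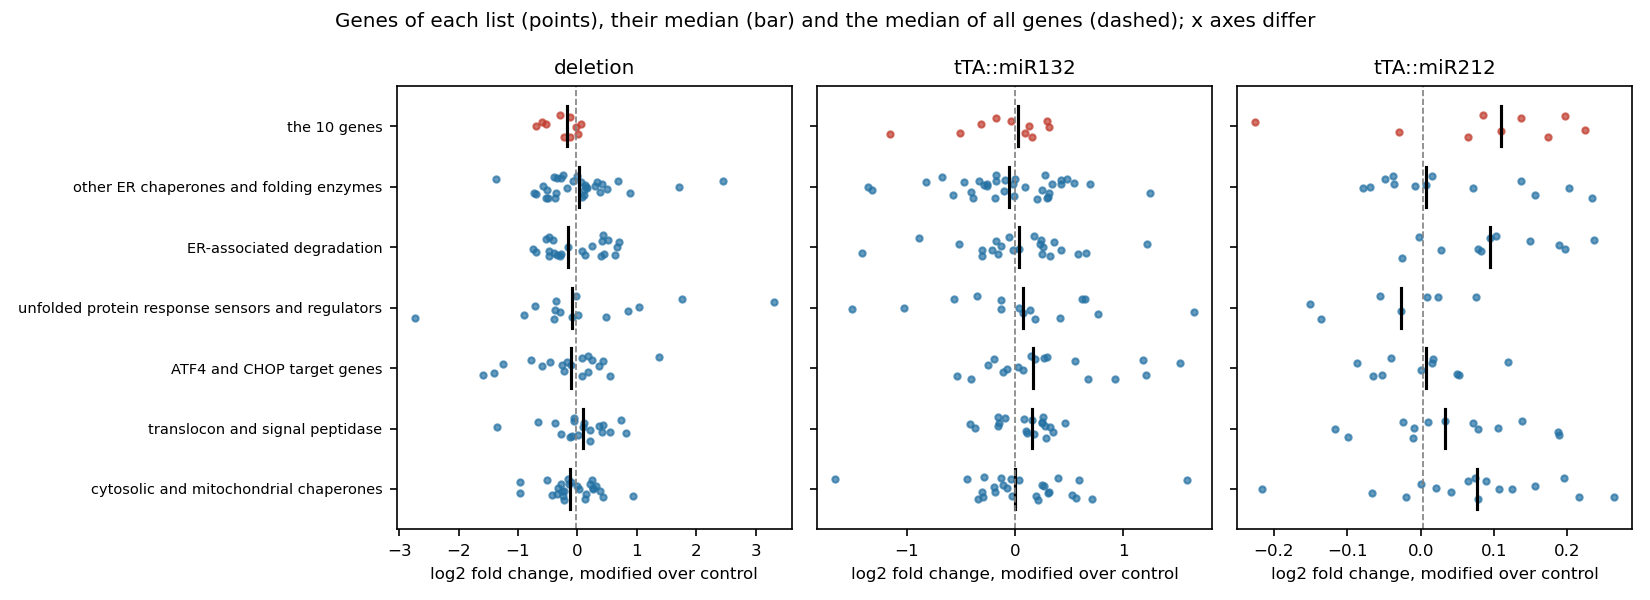
Log2 fold change, modified over control, of each gene in 7 lists (points), with the list's median (bar) and the median of all genes tested (dashed line), in the 3 comparisons, whose horizontal axes differ. The 10 genes have medians of −0.17, 0.03 and 0.11, and points of every list lie on both sides of 0.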

How the data were processed

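Polyadenylated hippocampal RNA was sequenced, and per the series' design text libraries followed the TruSeq guide on a Genome Analyzer II, with reads aligned to UCSC build mm9 by Bowtie 0.12.7 and custom R scripts. The sources used here do not state the counting tool, the annotation or the filter on genes. The deposited values used are raw read counts, whole numbers per RefSeq gene or Ensembl transcript per the file headers. Another 14 columns of normalized values were not used. For tTA::miR212 each symbol is represented by its transcript of highest mean count.

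CPM are raw counts over the total of the rows kept. Log2 fold changes and p-values come from edgeR 4.0.16 in R 4.3.3 (TMM, filterByExpr, robust quasi-likelihood test, Benjamini-Hochberg over all genes tested, threshold 0.05), fitted per table on only its 2 groups. The fit was also run on simulated counts. There, recovery of set changes was required only at less variation than in the deletion and tTA::miR132 tables. That run does not show which changes could be found in those tables. Whether libraries are separate pools of animals rests on the design text, so p-values measure the spread between these libraries. Counts of amplified reads understate error. No replicate pair held identical counts.

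The 10 members, the gene lists and the rule for naming were chosen with earlier results of these data known. Named genes were all members, up to 3 per pathway list and comparison with the smallest p, and the 5 most like Hspa5. Likeness was Pearson's r of log2(CPM + 0.5) among genes with a mean CPM of 10 or more in every table. Alternatives were DESeq2 1.42.0 and its size factors, total counts, limma-voom 3.58.1, no filter, the library number as a block, leaving out each library, and other uses of transcripts. Promoters and microRNAs are RefSeq GRCm38.p6, matched for 9 of 10 members. Gene positions, transcript lengths and 3′ UTRs are GENCODE M1 on mm9.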

Additional observations from a re-analysis of the deposited data

Results flagged for a closer look

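Hspa5 lay on opposite sides of its controls in 2 comparisons. Both deletion libraries were below both of their controls (log2 fold change −0.69). Both tTA::miR132 libraries were above both of theirs (0.13, SE 0.17). Of all genes tested, 18.0% were lower without overlap in the deletion and 18.8% higher in tTA::miR132. The deletion value had chosen the gene, and the difference between comparisons was not tested.

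Canx likewise had both deletion libraries below both controls (−0.12) and all 3 tTA::miR212 libraries above all 3 controls (0.20). In tTA::miR212, 6.47% of all genes tested were higher without overlap. The difference between comparisons was not tested for Canx either. In the deletion the nearest deletion and control libraries held 499 and 504 CPM of Canx.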

How the results depend on the processing

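With edgeR, 0 genes were called in each comparison. For the deletion, DESeq2 called 12 genes, 1 of them a member (Hspa5, adjusted p = 0.0336 by DESeq2), and limma-voom 1. The deletion values had chosen Hspa5, so its calls in that comparison are a description only. Leaving out a library gave 1 to 4527 genes and 0 to 2 members: 4527 genes and both members (Hspa5 and Pdia3) came without deletion library 2, which leaves library 1, with 1047 genes at 0, alone in its group, and 8 genes without deletion library 1. The lone library is then assumed to vary like the controls. For tTA::miR132, DESeq2 called 43 genes, 1 a member (Atf6), and limma-voom 3, and leaving out a library gave 0 to 111, with 111 without control library 1 and 4 without transgenic library 2. For tTA::miR212, leaving out a library gave 0 to 18, with 18 without transgenic library 1. The cause of these shifts was not tested.

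The library numbers did not pair the samples, with correlations of same-numbered deviations of 0.015, 0.013 and −0.079 to 0.021. With the number as a replicate block, 1 gene was called in tTA::miR132 and 1 in tTA::miR212, no member among them.

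Hspa5 kept its direction under every alternative run, at −0.78 to −0.60 in the deletion, 0.07 to 0.18 in tTA::miR132 and 0.04 to 0.21 in tTA::miR212. In the deletion, whose value had chosen the gene, and in tTA::miR132 its groups did not overlap. Leaving out 1 library could therefore hardly turn its sign there. Among the alternatives that kept every library, signs turned only for members near 0. In the deletion, Atf4 came to 0.0024 with DESeq2 size factors and 0.0021 with DESeq2. Pdia6 came to −0.0237 with total counts, −0.0283 with limma-voom and −0.0264 with the replicate block. Xbp1 came to −0.0475 with limma-voom and −0.027 with the replicate block. Calr in tTA::miR132 came to 0.0005 with total counts. Leaving out 1 library also turned members farther from 0 in the main fit, such as Pdia3, at −0.60 in the deletion and 0.31 in tTA::miR132. Leaving out 1 library gave ranges across 0 in the deletion for Atf4 (−0.0801 to 0.0495), Atf6 (−0.74 to 0.0454), Calr (−0.29 to 0.0197), Hsp90b1 (−0.50 to 0.13), Pdia3 (−1.72 to 0.0316), Pdia6 (−0.39 to 0.33) and Xbp1 (−0.53 to 0.47). In tTA::miR132 it did so for Calr (−0.23 to 0.15), Canx (−0.0581 to 0.24), Pdia3 (−0.48 to 2.26), Pdia4 (−0.39 to 0.0874), Pdia6 (−0.30 to 0.84) and Xbp1 (−0.57 to 0.0147), and in tTA::miR212 for Atf6 (−0.11 to 0.0489), Calr (−0.0582 to 0.17) and Xbp1 (−0.0556 to 0.18). Of 326 values of members in all, 296 had the direction of the main fit.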
